A study of Mus musculus with 10 samples.

Results

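Meis1 and Meis2 encode homeodomain transcription factors of the TALE class, named for a loop extension of 3 amino acids in the homeodomain. They bind DNA together with PBX and HOX proteins and are known for specifying position along body and limb axes during development. Gm16140 is an annotated antisense transcript that lies inside Meis1, on the opposite strand. DNA methylation at CpG dinucleotides is copied at cell division, and stretches of low methylation outside start sites are often regulatory elements.

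The DMRs described here are those whose nearest gene in the authors' deposited tables was Meis1, Meis2 or Gm16140. A DMR is a differentially methylated region, a run of neighbouring CpGs that the authors called as different between groups. There were 21 of them among 2132 DMRs: 10 had Meis1 as nearest gene, 6 had Meis2 and 5 had Gm16140. By table, 11 of 806 came from mLN against pLN in SPF mice and 10 of 1293 from mLN against pLN in GF mice. The tables of SPF against GF held 17 DMRs in mLN and 16 in pLN, and 0 of these belonged to the 3 genes. Merging DMRs that overlapped by at least 1 bp left 11 regions of 1602, with 199 of the 24182 CpGs.

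Whole-genome bisulfite sequencing had been done on non-endothelial stromal cells (CD45-CD31-Ter119-gp38+; gp38 is podoplanin) sorted from lymph nodes of BALB/c mice. The 10 libraries were 3 of gut-draining mesenteric lymph nodes (mLN) and 3 of skin-draining peripheral lymph nodes (pLN) from specific pathogen-free (SPF) mice aged 7 to 12 weeks, and 2 of mLN and 2 of pLN from germ-free (GF) mice aged 6 to 10 weeks. GF mice came by caesarean section from another institution than the SPF mice, so facility and housing cannot be told apart. For pLN libraries the source field reads skin-draining mesenteric, and the titles, which say pLN, were followed. The CpG table covers DMRs only, so the sorted cell type could not be checked against marker genes in it. In these bulk samples a change in the mix of stromal cells and a change within cells cannot be told apart.

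The regions lay in the first part of both genes and, at Meis1, also upstream of it. Coordinates are those of GRCm38 and the exons are those of the GENCODE M21 transcript with the longest coding sequence. Meis1 runs on the minus strand of chromosome 11 from 18879817 to 19018985, and Meis2 on the minus strand of chromosome 2 from 115863064 to 116065839; each has 12 exons in that transcript. At Meis1, a region of 4389 bp (chr11:19007297-19011685) covered exon 6, parts of introns 5 and 6 and the whole of Gm16140, which runs from 19009128 to 19011183. A second region of 449 bp (chr11:19012222-19012670) lay in intron 5. The other 5 Meis1 regions lay upstream of the gene, starting 2.5, 3.5, 4.3, 7.3 and 9.5 kb from its 5′ end (chr11:19021464-19021991, chr11:19022505-19022646, chr11:19023331-19023607, chr11:19026273-19026334 and chr11:19028480-19029182). At Meis2, all 4 regions were inside the gene. From 5′ to 3′ they were 902 bp around exon 4 (chr2:116060319-116061220), 264 bp in intron 5 (chr2:116059229-116059492), 92 bp across the start of exon 6 (chr2:116058708-116058799) and 732 bp in intron 6 (chr2:116057235-116057966). In both genes the first 3 exons held none of these DMRs. Distances in this text run from the gene's 5′ end, but start sites annotated by the authors lay nearer to the regions inside the genes. To the nearest one, the long Meis1 region had 0 bp (Gm16140) and Meis1 intron 5 had 219 bp. At Meis2 the distances were 1139 bp for exon 4, 386 bp for intron 5, 42 bp for exon 6 and 875 bp for intron 6. The map of the DMRs shows these positions.

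**Figure D1:**
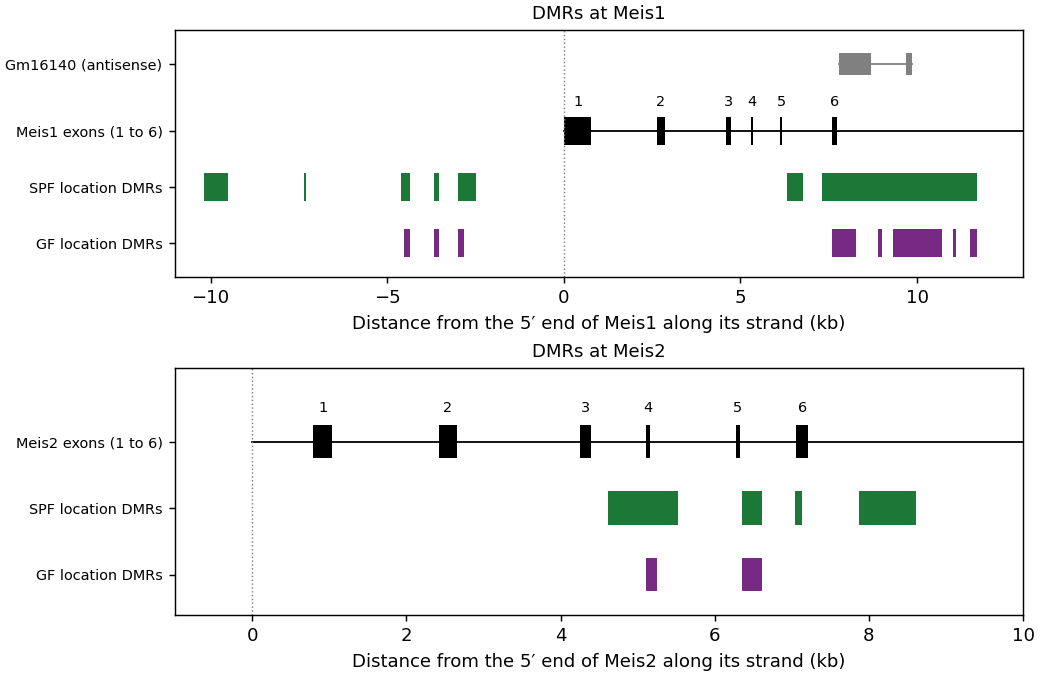
Positions of the 21 DMRs (boxes) against distance in kb from the 5′ end of Meis1 (top) and Meis2 (bottom), drawn along the strand of the gene with exons 1 to 6. SPF location DMRs are mLN against pLN in SPF mice and GF location DMRs the same contrast in GF mice; 5 GF DMRs fall inside the 4389 bp SPF DMR that spans Meis1 exon 6 and Gm16140.

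A DMR covered exon 6 of Meis1 whole and exon 6 of Meis2 in its 5′ part, and both exons are printed, 5′ to 3′ on the coding strand from GRCm38, to show which CpGs the paralogs share. Capitals mark the CpGs. The Meis1 exon is chr11:19011242-19011388 and the Meis2 exon is chr2:116058631-116058780.
Meis1 exon 6: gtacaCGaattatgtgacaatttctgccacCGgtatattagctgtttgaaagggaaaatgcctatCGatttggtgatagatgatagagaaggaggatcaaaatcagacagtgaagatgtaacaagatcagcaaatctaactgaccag
Meis2 exon 6: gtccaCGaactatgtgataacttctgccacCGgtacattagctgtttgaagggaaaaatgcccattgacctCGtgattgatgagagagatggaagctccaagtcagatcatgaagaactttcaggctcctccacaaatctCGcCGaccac
The exons are 147 and 150 bp long and were identical in 113 of 150 columns of a global alignment (75.3%). Meis1 has 3 CpGs here and Meis2 has 5, of which 2 stand in the same alignment column, at bases 6 and 31 of each exon. All 3 Meis1 CpGs and the first 3 of Meis2 had values in the CpG table. At base 6 the mean over the 5 mLN libraries was 9.12% in Meis1 and 51.6% in Meis2, against 76.1% and 84.8% over the 5 pLN libraries. At base 31 it was 52.9% in Meis1 and 29.6% in Meis2, against 96.0% and 57.8%. The third measured CpG, at base 66 of Meis1 and base 72 of Meis2, had 14.8% and 21.2% in mLN and 57.9% and 51.7% in pLN. Of the 2 shared CpGs, base 6 was thus the lower in Meis1 and base 31 the lower in Meis2, in mLN and pLN alike. For each of the 3 Meis1 CpGs all 5 mLN libraries lay below all 5 pLN libraries, and for none of the 3 Meis2 CpGs. Over all CpGs of regions with a lower authors' mean in mLN, 31.9% were separated in this way. The CpGs lie in DMRs called on this contrast, and the exons were not compared by a test.

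A further 4 short DMRs, whose methylation is given below, are printed on the forward strand with CpGs in capitals. Each runs up to the G of its last CpG. The first is from Meis1 intron 6 (chr11:19007889-19007983), the next a stretch across the boundary of Meis2 exon 4 and intron 4 (chr2:116060588-116060728), and the last a pair upstream of Meis1 (chr11:19022505-19022647 and chr11:19026273-19026335).
Meis1 intron 6: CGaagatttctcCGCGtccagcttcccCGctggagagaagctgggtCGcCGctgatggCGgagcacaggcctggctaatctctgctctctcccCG
Meis2 exon 4 and intron 4: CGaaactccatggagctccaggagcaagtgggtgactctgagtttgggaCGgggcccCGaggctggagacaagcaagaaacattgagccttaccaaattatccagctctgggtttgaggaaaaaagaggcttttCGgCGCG
Meis1 upstream at 3.5 kb: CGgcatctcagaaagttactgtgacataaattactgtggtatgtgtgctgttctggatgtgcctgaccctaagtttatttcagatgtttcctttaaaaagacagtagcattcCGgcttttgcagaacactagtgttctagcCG
Meis1 upstream at 7.3 kb: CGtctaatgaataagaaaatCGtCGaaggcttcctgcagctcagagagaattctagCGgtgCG
These stretches hold 8, 6, 3 and 5 CpGs, all with values. The CpGs stand close together in the intron 6 stretch of Meis1 and in the region at 7.3 kb, and far apart in the one at 3.5 kb. Over whole regions, CpG density ranged from 0.853 per 100 bp at 9.5 kb upstream of Meis1 to 8.06 per 100 bp at 7.3 kb, with a median of 2.17 over the 11 regions and 2.11 over all merged regions. The median GC content was 46.8%, against 46.3% over all merged regions. The highest GC content, 57.6%, was that of the Meis2 exon 4 region.

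All 11 regions were less methylated in mLN than in pLN, and in each of them the 5 mLN libraries lay below the 5 pLN libraries. Methylation of a region is the mean over its CpGs of the share of reads that kept the cytosine. The regions had been chosen for this contrast, so these levels are a description. Of the 788 merged regions with a lower authors' mean in mLN, 77.9% had the same separation of libraries.

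The long Meis1 region held 111 of the 199 CpGs. Its methylation was 13.5%, 20.1% and 19.8% in the mLN SPF libraries and 13.1% and 13.6% in the mLN GF libraries. In pLN it was 72.2%, 70.5% and 66.1% in SPF mice and 69.3% and 67% in GF mice. The groups were thus 46.0 points apart at their nearest libraries (lowest pLN minus highest mLN library), the widest gap of the 11 regions. By size it ranked 1 among the 806 SPF location DMRs in width and 2 in the authors' CpG number, 90 CpGs (the CpG table holds more CpGs than the authors counted).

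The profile inside this region was uneven. Over the 61 CpGs of Meis1 intron 6 outside Gm16140, mLN libraries averaged 12.9% ± 4.46 (SD, n = 3) in SPF and 8.86% ± 0.141 (n = 2) in GF mice, and pLN libraries 67.2% ± 3.69 and 65.7% ± 1.32. Exon 1 of Gm16140, with 6 CpGs at the start of this transcript, was the most methylated piece in pLN, with 93.6% ± 3.51 and 98.3% ± 2.38 there and 39.7% ± 4.86 and 33.7% ± 5.83 in mLN. Its exon 2, with 20 CpGs, had 16.6% ± 6.44 and 9.52% ± 5.2 in mLN and 57.5% ± 4.11 and 51.9% ± 0.0102 in pLN. The difference between mLN and pLN was therefore smaller in exon 2 (-40.9 points in SPF, -42.3 in GF) than in exon 1 of Gm16140 (-53.9 and -64.6), and neither was tested. The 5 CpGs of Meis1 intron 5 at the 5′ edge of the region had 40.0% ± 6.16 and 41.3% ± 7.54 in mLN and 79.3% ± 4.52 and 80.8% ± 8.25 in pLN.

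**Figure D2:**
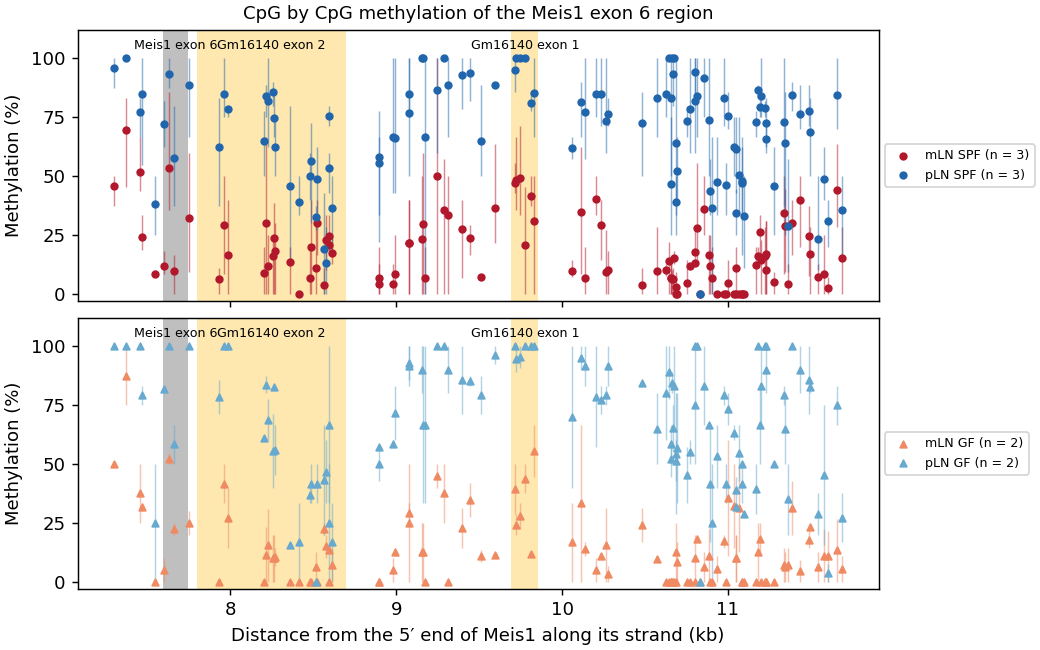
Methylation in percent of the 111 CpGs of the long Meis1 region against distance in kb from the Meis1 5′ end, in SPF mice (top) and GF mice (bottom). Points are group means, vertical lines span the lowest to the highest library, grey marks Meis1 exon 6 and yellow the exons of Gm16140; pLN points lie above mLN points at almost all CpGs.

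Of the 21 DMRs, the intron 6 stretch printed above, 11 kb from the Meis1 5′ end, had the lowest mean in mLN of SPF mice, and the DMR at chr11:19009992-19010091 (4 CpGs) the lowest in mLN of GF mice, with 3.57% and 5.28%. Over the 8 CpGs of the printed stretch the mLN SPF libraries had 1.56%, 4.29% and 0%, and the mLN GF libraries 4.74% and 25%. The pLN libraries had 58.6%, 51.7% and 44.5% in SPF and 45.2% and 50.4% in GF mice. At 6 of the 8 CpGs the mean of the mLN SPF libraries was 0%, and the 2 mLN GF libraries lay farther apart here than any pair of SPF replicates of 1 node. Across the longer region the GF DMRs, 5 in number, covered 55.5% of the bases. The 50 CpGs between them, which the GF table left out, had 12.1% ± 1.66 in mLN GF and 64.4% ± 1.87 in pLN GF (n = 2 each), and the 61 CpGs inside them 14.3% ± 2.04 and 71.2% ± 1.45. CpGs outside the GF DMRs were thus also low in mLN of GF mice.

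All 5 upstream Meis1 regions had higher group means in mLN than the long region, with the lowest of them at 7.3 kb. At 3.5 kb the mLN libraries had 27.4%, 44.1% and 44.2% in SPF and 26.1% and 33.2% in GF mice. The pLN libraries had 91.5%, 91.5% and 95.2% in SPF and 97.2% and 86.7% in GF mice, close to full methylation. The 3 CpGs of this stretch had means of 32.9%, 38.1% and 34.0% over the mLN libraries and 90.3%, 90.9% and 96.1% over the pLN libraries.

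At 4.3 kb mLN had 38.0% ± 3.20 in SPF (n = 3) and 30.3% ± 3.47 in GF (n = 2), and pLN 81.0% ± 9.82 and 90.6% ± 3.65. At 2.5 kb mLN had 41.7% ± 7.27 and 27.2% ± 5.12, and pLN 71.6% ± 3.68 and 60.7% ± 4.56. At 7.3 kb mLN had 22.3% ± 5.93 and 26.8% ± 15.9, and pLN 56.8% ± 5.12 and 50.1% ± 4.63. The farthest region, at 9.5 kb, was the highest upstream region in mLN, with 35.8%, 54.9% and 55.3% in SPF and 65.4% and 52.4% in GF mice, and had the narrowest gap of the 11 regions, 6.60 points, between the nearest mLN and pLN libraries. Meis1 intron 5 had 22% ± 14 and 27.9% ± 18.9 in mLN and 84.3% ± 6.07 and 79.1% ± 6.62 in pLN. The large SD in mLN came from replicate 3 of SPF (37.9%) and replicate 2 of GF (41.2%), beside 11.6%, 16.3% and 14.6% in the others, over 4 CpGs.

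**Figure D3:**
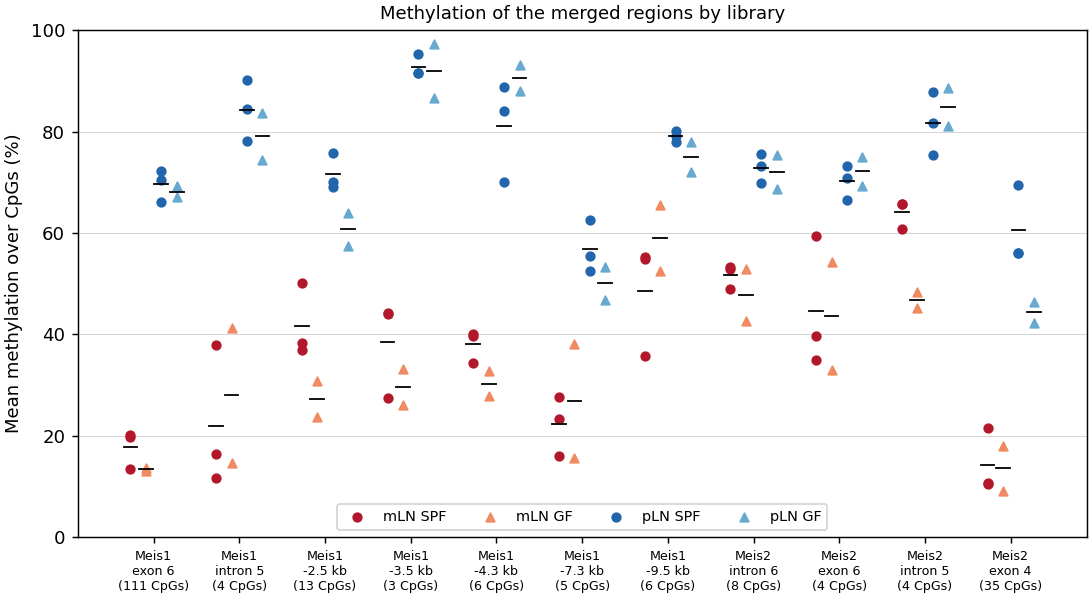
Mean methylation in percent of each of the 11 merged regions in each of the 10 libraries (points), with the group mean as a black bar. Meis1 upstream regions are named by their distance from the 5′ end; in every region the mLN libraries (red and orange) lie below the pLN libraries (blue).

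At Meis2 the exon 4 region, with 35 CpGs, had levels in mLN near those of the long Meis1 region, with 10.4%, 10.6% and 21.5% in mLN SPF and 17.9% and 9.11% in mLN GF. In pLN it had 69.4%, 56.0% and 56.0% in SPF and 46.4% and 42.3% in GF mice, so that both pLN GF libraries lay below all 3 pLN SPF libraries. In the stretch printed above, with 6 CpGs at the exon 4 boundary, means over the mLN libraries were 10.0% to 23.2% and means over the pLN libraries 44.7% to 68.5%. Its pLN values were scattered, with 57.9%, 37.2% and 65.0% in SPF and 35.3% and 71.5% in GF mice.

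**Figure D4:**
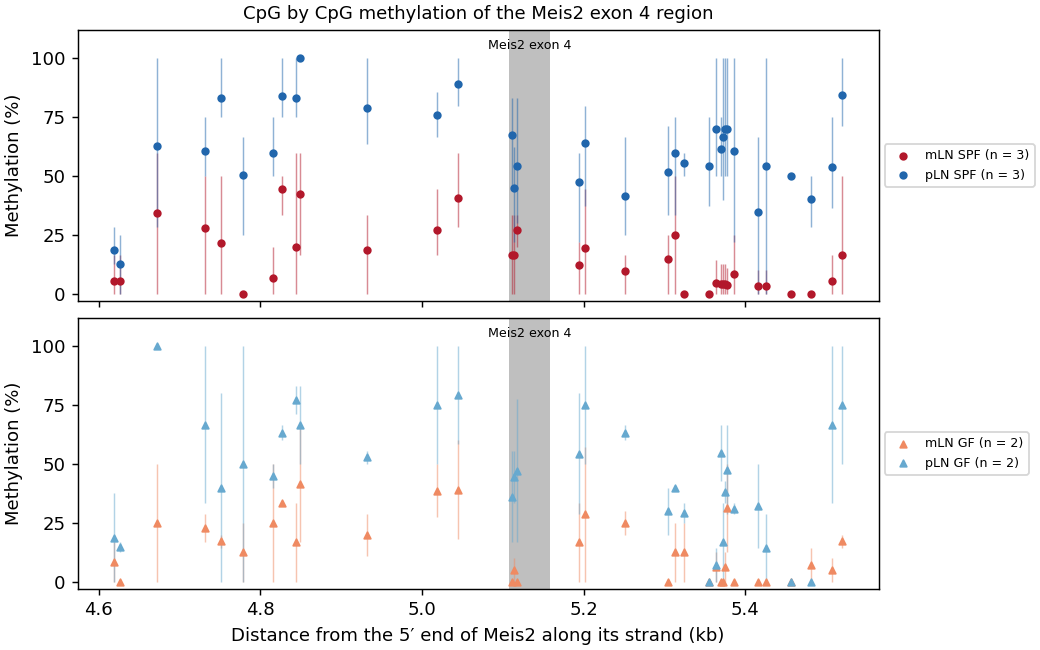
Methylation in percent of the 35 CpGs of the Meis2 exon 4 region against distance in kb from the Meis2 5′ end, in SPF mice (top) and GF mice (bottom). Points are group means, vertical lines span the lowest to the highest library and grey marks exon 4; the spread between libraries at single CpGs is wider than at the Meis1 region.

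The other Meis2 regions kept more methylation in mLN. Intron 5 had 65.8%, 65.8% and 60.7% in mLN SPF and 48.4% and 45.2% in mLN GF, with pLN between 75.5% and 88.7%. Exon 6 had 34.9%, 39.6% and 59.4% in mLN SPF and 33.0% and 54.3% in mLN GF, with pLN between 66.6% and 75.0%. Intron 6 had 51.6% ± 2.42 and 47.8% ± 7.23 in mLN, and 72.9% ± 2.84 and 72.0% ± 4.66 in pLN. The location difference at Meis2 had a median of -23.4 points over its 4 regions in SPF mice and -29.7 in GF mice, against -43.0 and -51.1 over the 7 regions at Meis1; the 2 genes were not compared by a test.

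CpG by CpG, 194 of the 199 CpGs had a lower mean in mLN than in pLN in SPF mice, 3 a higher one and 2 an equal one. In GF mice the numbers were 189, 4 and 6. The CpGs lie in regions chosen for this contrast, so these counts are a description. All 5 mLN libraries lay below all 5 pLN libraries at 94 of the 144 Meis1 CpGs with a value in every library (65.3%) and at 7 of the 51 Meis2 CpGs (13.7%). Over the 11134 such CpGs of regions with a lower authors' mean in mLN this share was 31.9%. Of the single CpG values at Meis1, 28.8% were 0 in mLN SPF and 41.9% in mLN GF, against 2.49% and 4.75% in pLN. Of the 3 CpGs higher in mLN of SPF mice, the Meis1 upstream CpG at chr11:19021661 had the largest difference, 22.2 points. It had 100% in replicate 3 of mLN SPF, 33.3% in replicate 2 of pLN SPF and 0% in the other 8 libraries. It was singled out after its values were seen.

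To measure the DMRs in animals that had not been used to call them, those called in GF mice were tested in the 6 SPF libraries and those called in SPF mice in the 4 GF libraries. All 10 GF DMRs were lower in mLN of SPF mice (limma, Benjamini-Hochberg over all 1293 DMRs, adjusted p from 9.1e-06 to 0.0061). Of the 689 GF DMRs with a lower authors' mean in mLN, 79.4% passed the same test, so the count of calls is near this background. The 3 mLN lay below the 3 pLN libraries in all 10, as in 78.5% of the 689; the exact permutation p (two-sided) was 0.10 for each, the smallest that 3 against 3 allows. The size of the difference was at least 25 points in 8 of 10, against 46.6% of the 689, and its median was -46.0 points, against -24.2. Of the 10 DMRs, 5 are parts of the long Meis1 region, all of them among the 8, so the 10 are not separate loci. The DMR of 1383 bp over the 5′ end of Gm16140 (chr11:19008291-19009673) had the largest difference: mLN SPF libraries had 12.9%, 24.0% and 21.9% and pLN SPF libraries 80.4%, 83.7% and 81.0%, a difference of -62.1 ± 4.65 points (SE; limma adjusted p = 9.1e-06). The smallest was that of Meis2 intron 5, -17.5 ± 4.77 points (limma adjusted p = 0.0061).

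All 11 SPF DMRs were lower in mLN of GF mice (limma, adjusted over all 806 DMRs, adjusted p from 0.00046 to 0.036). This again was near the background, in which 92.8% of the 333 SPF DMRs with a lower authors' mean in mLN passed. The 2 mLN lay below the 2 pLN libraries in all 11, as in 96.4% of the 333, and the exact permutation p was 0.33, the smallest that 2 against 2 allows. The difference reached 25 points in 8 of 11, against 72.4% of the 333, and its median was -33.5 points, against -32.0. At 3.5 kb upstream of Meis1 it was -62.3 ± 5.42 points (SE; limma adjusted p = 0.00051), and over the long region -54.8 ± 4.00 (limma adjusted p = 0.00046). The weakest calls were those at 9.5 kb, -16.1 ± 5.74 points (limma adjusted p = 0.036), and at 7.3 kb, -23.3 ± 7.88 (limma adjusted p = 0.030). Both were lost without replicate 2 of mLN GF (-9.55 and -12.1 points, limma adjusted p = 0.18 and 0.12), without replicate 1 of pLN GF (-19.0 and -26.6 points, limma adjusted p = 0.060 and 0.066) or without replicate 2 of pLN GF (-13.1 and -20.0 points, limma adjusted p = 0.15 and 0.13). Without the last, Meis2 exon 6 was lost as well (-25.6 points, limma adjusted p = 0.066, from -28.5 ± 7.53).

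**Figure D5:**
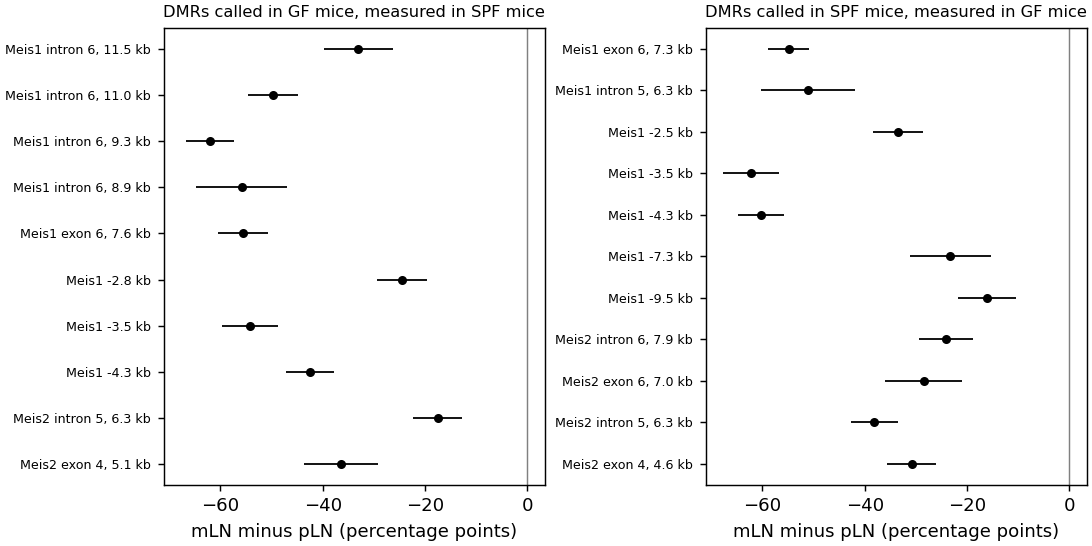
Difference in methylation, mLN minus pLN in percentage points, of each DMR in the libraries that had no part in calling it (points, with the SE from limma as bars): GF DMRs in the 6 SPF libraries (left) and SPF DMRs in the 4 GF libraries (right). DMRs are named by feature and distance from the 5′ end; all 21 lie below 0, from -16.1 to -62.3 points.

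At single CpGs, 65 of the 82 CpGs of the GF DMRs were called lower in mLN of SPF mice (limma, adjusted over 15115 CpGs), against 33.3% of the CpGs in GF DMRs with a lower authors' mean in mLN. CpGs in a DMR share reads, so they are not independent. Without 1 library the count fell to between 44 and 53. Over all 15115 CpGs, in DMRs of either direction, the share called lower likewise fell from 17.3% to between 10.7% and 14.0%. Of the 198 CpGs of the SPF DMRs with values, 56 were called lower in mLN of GF mice, against 17.2% of the CpGs in SPF DMRs with a lower authors' mean in mLN. This count was 0 with methylation on an arcsine square root scale or with replicate number as a block. The same held over all 15217 CpGs tested, of which 1075 had been called lower and 0 remained in either setting. Leaving out 1 GF library leaves a group of 1, so no count of CpG calls is given for it.

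The SPF and GF tables met in 6 regions: the long Meis1 region, those at 2.5, 3.5 and 4.3 kb upstream of it, and Meis2 intron 5 and exon 4. All 10 GF DMRs overlapped an SPF DMR, and 6 of 11 SPF DMRs overlapped a GF DMR. The 5 SPF DMRs without one were Meis1 intron 5, the regions at 7.3 and 9.5 kb, and Meis2 exon 6 and intron 6. In the GF libraries the latter 5 regions had a median difference of -24.2 points (from -16.1 to -51.1), and the 6 regions called in both had -46.5 (from -30.8 to -62.3). The split into these sets rests on calls made in the same GF libraries, so these medians are a description. All 5 were among the 11 called lower in GF mice above, and 3 of them (7.3 kb, 9.5 kb and Meis2 exon 6) lost that call without 1 or another GF library.

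Housing showed no called difference at these genes. The SPF minus GF difference, adjusted for location, ranged from -3.12 to 12.7 points with a median of 2.36 over the 11 regions, and 0 of 11 passed (limma over 1602 regions, of which 0% passed). With p not adjusted, 1 of 11 was under 0.05, against 4.49% of all regions. It was the region 2.5 kb upstream of Meis1, which was higher in SPF mice in both nodes, by 12.7 ± 3.55 points (SE; limma adjusted p = 0.85). Its mLN GF libraries, 23.6% and 30.8%, lay below the mLN SPF libraries, 38.2%, 36.8% and 50.1%, and its pLN GF libraries, 57.5% and 63.9%, below the pLN SPF libraries, 75.8%, 70.0% and 69.0%. The median SE of the housing difference was 4.43 points, so differences of a few points could not be detected with these libraries.

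The location difference was also compared between SPF and GF mice, as its SPF value minus its GF value. The regions were called on this location difference in the same libraries, 5 of the 11 in SPF mice only. The comparison is therefore not independent of that choice. Its median SE was 7.91 points, so differences of several points could not be detected. None of the 11 regions passed (0 of 11; 0% of 1602 regions; smallest limma adjusted p = 0.45). With p not adjusted, 2 of 11 were under 0.05, against 8.80% of all regions. At Meis2 intron 5 the difference was -17.5 points in SPF and -38.1 in GF mice, 20.6 ± 6.64 points apart (SE; limma adjusted p = 0.45). At 4.3 kb upstream of Meis1 it was -43.0 and -60.3, 17.3 ± 7.81 points apart (limma adjusted p = 0.54). The Meis2 exon 4 region differed the other way, with -46.4 in SPF and -30.8 in GF mice, -15.6 ± 7.91 points apart (limma adjusted p = 0.59).

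Replicate 3 of mLN SPF was the highest of its group in 9 of 11 regions and had the highest mean over the 199 CpGs, 27.6%, beside 19.5% and 23.6% in its group. It was also the highest mLN SPF library over the 814 merged regions of the series that were lower in mLN, with 40.8% beside 36.0% and 38.8%. Without it all 10 GF DMRs were still called lower in mLN of SPF mice, and 53 in place of 65 of their 82 CpGs. Over all CpGs of GF DMRs, in either direction, the share called lower went from 17.3% to 14.0%. The pooled SD within groups had a median of 6.43 points over the 11 regions (from 2.91 to 12), against 5.81 over all merged regions.

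Among the other genes of the TALE class (MEIS, PBX, PKNOX, TGIF, MKX and IRX families, 18 genes in the list), 12 had no DMR in any of the 4 tables. Meis3, all 4 Pbx genes, which encode the partners of MEIS proteins, both Pknox and both Tgif genes, Mkx, Irx3 and Irx4 made up these 12. The 4 others with a DMR were Irx1, Irx2, Irx5 and Irx6 of the Iroquois family, with 5 DMRs in all, each of them from 0 to 234499 bp from the nearest start site. In the libraries not used for calling, Irx5 (39.3 ± 4.48 points, limma adjusted p = 4.0e-05), Irx1 (24.5 ± 6.28, limma adjusted p = 0.0043) and Irx6 (22.4 ± 5.75, limma adjusted p = 0.0044) were higher in mLN, opposite to Meis1 and Meis2. An Irx2 DMR was lower in mLN of SPF mice (-26.9 ± 4.72 points, limma adjusted p = 0.00046), and another one, over its start site, did not pass in GF mice (0.351 ± 5.48, limma adjusted p = 0.95). Of the DMRs of Meis1 and Meis2 themselves all 16 were called lower, as were 79.4% of GF and 92.8% of SPF DMRs with a lower authors' mean in mLN.

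The regions with the most similar methylation over the 10 libraries were sought among the 897 merged regions with at least 10 CpGs and another nearest gene. Closest to the long Meis1 region were regions near Zbtb38 (root mean square difference 4.25 points), Emx2 (4.65) and Shox2 (5.25); EMX2 and SHOX2 are homeodomain transcription factors. Closest to the Meis2 exon 4 region were regions near Celrr (5.89 points), Cand1 (7.41) and Twist1 (7.43), the last encoding a bHLH factor of mesenchyme. In the Zbtb38 region mLN libraries ranged from 14.3% to 22.5% and pLN libraries from 59.6% to 74.2%.

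The letters TGACAG, the core that MEIS proteins bind, were searched on both strands. They occurred 7 times in the 11 regions, all in the long Meis1 region, which is 0.820 per kb, against 0.833 per kb over all merged regions. In windows of 300 bp at the centre of each region, 0 of 11 held the letters, against 23.0% of all merged regions.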

How the data were processed

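Whole-genome bisulfite reads of 10 libraries had been trimmed with cutadapt 1.4 and aligned to GRCm38 with BSMAP 2.4.3 by the authors, per the labels and the methods of the study. The authors kept CpGs covered by at least 5 reads in at least 2 replicates, smoothed methylation with bsseq and called runs of at least 3 CpGs, at most 300 bases apart, that differed by at least 25 points. The deposited tables give DMRs with the authors' group means, other values on a 0 to 1 scale, which were used for direction, for the minimum of 0.35 and as description, and the methylation of each CpG in each library as a fraction of reads. The tables' test scores and difference columns were not used. The methods state that 1 mLN GF and 1 pLN GF library were left out as outliers; these were not used here. Read numbers behind each fraction are unknown here, so there is no counting interval and the coverage minimum could not be varied; few CpGs in a DMR limit precision.

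Here the fractions were turned into percent and the mean over the CpGs of a DMR or merged region was taken in each library. The study states that replicates of bulk sequencing came from independent experiments; how many animals made up a library is not given in the sources used here. Tests used limma 3.58.1 in R 4.3.3 over whole tables (Benjamini-Hochberg, threshold 0.05) and exact permutation. Scripts were tested on simulated data. All 24182 positions carried CG in GRCm38. Distances follow the gene's 5′ end in GENCODE M21. Exons were aligned with Biopython 1.88. The members, the gene list and the tests were chosen with earlier results of these data known; named items follow a stated rule: every member DMR, the TALE list, the 3 regions most like the largest region of each gene, and the short stretches printed. Same-numbered mLN and pLN libraries were checked for pairing.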

Additional observations from a re-analysis of the deposited data

How the results depend on the processing

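The 10 GF DMRs measured in SPF libraries stayed called lower under every alternative that kept them, and 10 of 10 without any 1 library. A minimum of 5 CpGs per DMR left 6 GF DMRs and 7 SPF DMRs, all called lower. It also left 7 merged regions, which had been chosen for the location contrast, so no calls are given for them. A minimum of 0.35 between the authors' group means left 5 SPF DMRs, all called lower. Fewer were tested by construction. The 11 SPF DMRs measured in GF libraries gave 8 to 11 calls without 1 library and 10 with the median over CpGs, where the region 7.3 kb upstream of Meis1 was lost. At single CpGs, the 56 calls in GF libraries became 0 on the arcsine square root scale and 0 with the replicate block. So did the 1075 calls over all 15217 CpGs tested. At an unadjusted p under 0.05 (limma) there were 110 and 110 CpGs of the SPF DMRs at these genes, against 115 in the reported fit. The cause was not tested. Housing and interaction calls were 0 under all alternatives. Same-numbered mLN and pLN libraries did not deviate together (correlations of -0.037 to 0.032 over merged regions), so numbers were not taken as pairs, and the replicate block changed no other count by over 1.5 times. With 2 GF libraries a group, a lone library left after leaving 1 out was assumed to vary like the other group.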

Other observations

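Outside the rule, 9 further merged regions lay in or within 20000 bp of Meis1 and Meis2 but had another nearest gene. All 9 were less methylated in mLN, the contrast they were called on, with all 5 mLN libraries below all 5 pLN libraries, as in 77.9% of merged regions with a lower authors' mean in mLN. Beyond the 3′ end of Meis1, 5 regions near 8430419K02Rik had -44.6 to -60.2 points (mLN minus pLN over 10 libraries). Among these, the region with the lowest mean in mLN GF was chr11:18874126-18874596, with 10.7% ± 7.0 in mLN SPF (n = 3) and 4.69% ± 6.63 in mLN GF (n = 2), against 54.8% ± 12 and 55.3% ± 10.0 in pLN. Upstream of Meis2, 2369 bp from its 5′ end, a region near G630016G05Rik (chr2:116068208-116069912, 29 CpGs) had 34.0% ± 5.26 and 35.7% ± 4.33 in mLN and 76.9% ± 0.921 and 82.2% ± 3.57 in pLN. Inside Meis1, a region in intron 4 near Gm16141 (chr11:19013439-19013535) had 4.36% ± 4.13 and 8.22% ± 1.02 in mLN, and 32.3% ± 19.1 and 24.6% ± 20.7 in pLN, where replicates were far apart. Of the 14 DMRs in these regions, 13 were called lower in mLN in the libraries not used to call them (limma), near the 92.8% of SPF and 79.4% of GF DMRs with a lower authors' mean in mLN that passed; the exception was the intron 4 DMR in GF libraries. These regions were chosen after their values were seen.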
